A study of Mus musculus with 15 samples.

Results

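The chemokine receptors Ccr1, Ccr2, Ccr3, Ccr7, Cxcr1, Cxcr2, Cxcr4, Ackr3 and Ccrl2 were described in RNA-seq values of tumor-associated macrophages (TAMs). They were found by gene symbol, each in a single row, and are 9 of the 55335 genes listed. The TAMs were sorted by FACS on CD11b and F4/80 from orthotopic HCC in the liver of C57BL/6 mice, and all 3 groups are labelled untreated. The tumors grew from Hepa1-6 cells, a mouse hepatoma line that was modified to express luciferase. The control group had control HCC, and the other groups had miR-144 overexpression in HCC or miR-451a overexpression in HCC, brought about by lentivirus. Each group had 5 samples, 15 in all, and the macrophages themselves were not modified, so their mRNA does not check the overexpression. The age and sex of the mice and the number of mice per sample are not given in the sources used here. Since nothing says that samples came from separate mice, p-values measure the spread between these samples, which may be technical. The study gives a smaller n for its own RNA-seq panels than the number of samples per group used here, and which samples those were is not given in the sources used here.

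Chemokine receptors are G protein-coupled receptors that steer leukocytes along gradients of small secreted proteins, the chemokines. In macrophages, Ccr2 draws monocytes out of blood into tissue, Ccr1 binds inflammatory CC chemokines, and Cxcr4 binds Cxcl12 and retains cells in tissue. Ackr3 and Ccrl2 are atypical receptors that do not drive G protein signalling, Ackr3 taking up Cxcl12 and Ccrl2 presenting chemerin.

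The overexpressed miRNAs define the groups, and their mature sequences are shown for that reason, 5′ to 3′, with the seed (bases 2 to 8) in capitals. They are RefSeq sequences of build GRCm38.p6 and lie on the plus strand of chromosome 11. The hairpin of miR-144 gives mmu-miR-144-5p (chr11:78073010-78073032) and mmu-miR-144-3p (chr11:78073047-78073066), and mmu-miR-451a lies at chr11:78073186-78073207.
mmu-miR-144-3p: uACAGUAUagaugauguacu
mmu-miR-144-5p: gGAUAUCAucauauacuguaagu
mmu-miR-451a: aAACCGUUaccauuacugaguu
The 3 seeds differ from each other. Each miRNA was overexpressed in the tumor cells of its own group, and the arm of miR-144 that was raised is not given in the sources used here.

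The values are FPKM, which scale a gene's fragments to its length and to the depth of its sample. Depth as implied by the values ranged from 15.6 to 30.7 M fragments, and 3 fragments, taken as the floor that this depth can show, correspond to 0.0170 FPKM (Ccr2, deepest sample) to 0.133 FPKM (Cxcr1, shallowest sample) among the 9 receptors. The floor covers counting error only. Means are given ± the SD over the 5 samples of a group. Of 8 macrophage markers, Itgam, which encodes the CD11b used for the sort, was not matched to a single row and was left out. Each of the other 7 was above 1 FPKM. Their summed values were 8745 to 9573 FPKM for control, 14650 to 16510 for miR-144 and 14340 to 15560 for miR-451a. Adgre1, one of them, which encodes the F4/80 antigen used for the sort, rose from a mean of 137 FPKM to 361 and 354.3. The hepatocyte and hepatoma markers Alb, Apoa1, Ttr and Serpina1a were listed at 0 in all 15 samples, and the remaining 1 of the 5, Afp, was above 0 in every sample with means of 0.203, 0.146 and 0.148 FPKM and was not called. In bulk RNA, fewer cells of a type and less RNA per cell cannot be told apart. Tests used limma on log2(FPKM + 1) over the 29540 genes above 0 in at least 1 sample, with Benjamini-Hochberg adjustment and a threshold of 0.05. On this scale the change of a gene at or below about 1 FPKM comes out too small.

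In TAMs of either miRNA group, Ccr2 and Cxcr4 were higher than in the control group and Ccr1, Ccrl2, Cxcr1 and Cxcr2 were lower. Ccr3, Ccr7 and Ackr3 did not pass the test. Thus 6 of the 9 receptors were called in each comparison, 2 higher and 4 lower. Among all genes fitted, 32.8% were called with miR-144 (23.1% higher, 9.65% lower), and the miR-451a comparison called 34.2% (24.5% higher, 9.69% lower). Calls are more frequent at higher levels. Among genes averaging 1 FPKM or more over all samples, refitted alone, the share called was 67.2% for miR-144 and 68.3% for miR-451a, and Cxcr4, Ccr1 and Ccrl2, the 3 receptors at that level, were called in both. The groups did not overlap for the 6 called receptors in either comparison, beside 26.9% of all genes for miR-144 and 27.9% for miR-451a. The median difference of the 9 receptors was -0.11 in both comparisons, beside 0.014 and 0.015 over all genes.

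**Figure D1:**
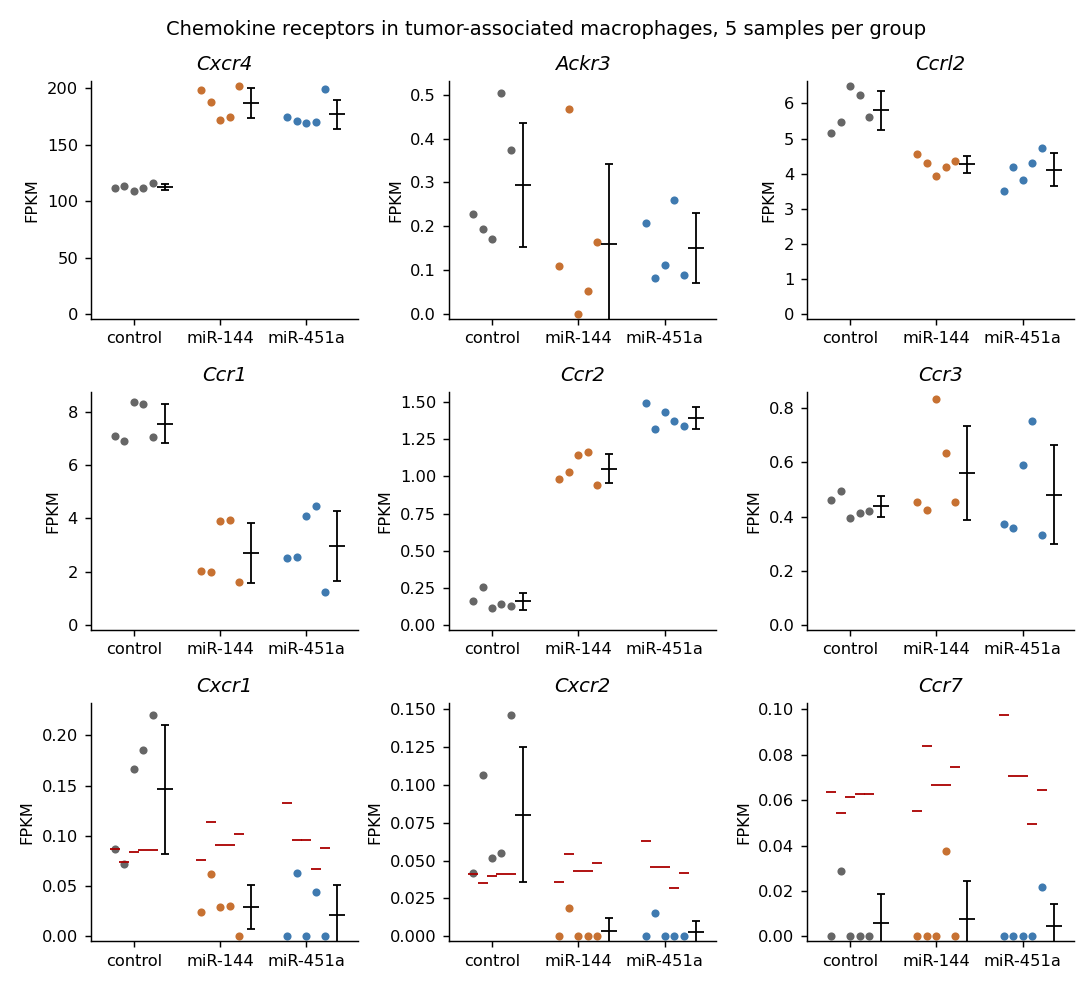
FPKM (y axis, linear, a separate scale for each panel) of the 9 chemokine receptors in the control, miR-144 and miR-451a groups (x axis), with 1 point per sample in the order of replicate numbers 1 to 5 and the mean with its SD beside them (bars that would pass below 0 are cut there). Red dashes in the panels of Cxcr1, Cxcr2 and Ccr7 mark the floor of 3 fragments. Points of the miRNA groups lie clear of the control points for Cxcr4, Ccrl2, Ccr1, Ccr2, Cxcr1 and Cxcr2.

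**Figure D2:**
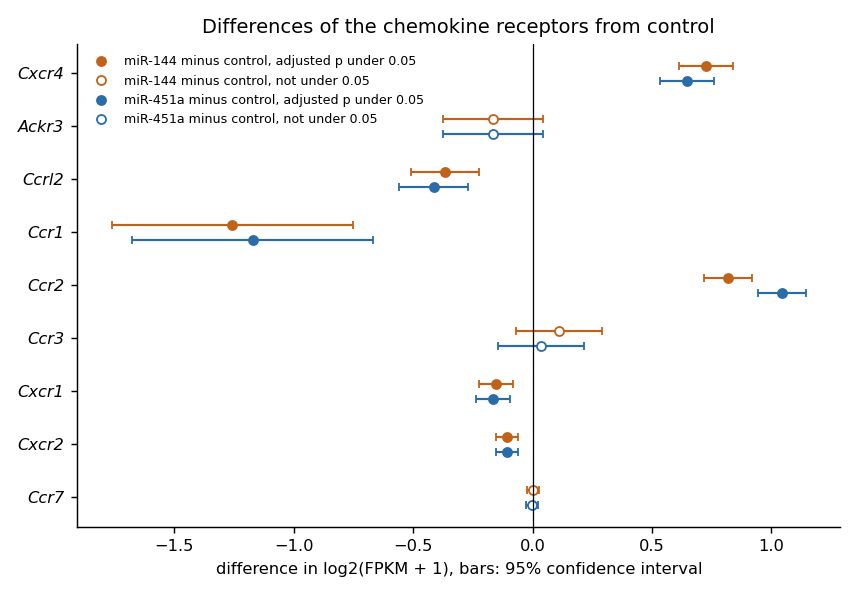
Difference in log2(FPKM + 1) from the control group (x axis) of each receptor (y axis) in the miR-144 and miR-451a groups, with 95% confidence intervals as bars and filled points for an adjusted p under 0.05. Ccr2 and Cxcr4 lie to the right of 0 and Ccr1, Ccrl2, Cxcr1 and Cxcr2 to the left, while the intervals of Ccr3, Ackr3 and Ccr7 cross 0.

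Levels per length differed widely between the receptors. Cxcr4 had the highest mean of the 9 in every group and made up 87.4% to 89.4% of their summed FPKM in control samples, 94.6% to 96.4% with miR-144 and 93.8% to 96.3% with miR-451a. In the control group the order was Cxcr4, Ccr1, Ccrl2, Ccr3, Ackr3, Ccr2, Cxcr1, Cxcr2 and Ccr7. The sample ranges of neighbours overlapped from Ccr3 to Cxcr2 in that order, and the other neighbours lay apart. With miR-144 the order began with Cxcr4, Ccrl2, Ccr1, Ccr2 and Ccr3, where Ccrl2 and Ccr1 overlapped. With miR-451a the order of these 5 was the same, and Ccr1 overlapped both Ccrl2 and Ccr2. Ccr2 thus stood below Ccr3 and Ackr3 in the control group and above them in each miRNA group.

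Coordinates of the genes are those of GENCODE M21 (GRCm38). Cxcr4 (ENSMUSG00000045382, chr1:128588199-128592293, minus strand, protein-coding) encodes the receptor of Cxcl12. Its FPKM was 111, 114, 109, 112 and 116 in control replicates 1 to 5. It was 199, 188, 172, 175 and 202 in the miR-144 samples. It was 175, 171, 169.6, 170.1 and 199 in the miR-451a samples. Every sample of a miRNA group lay above the highest control sample, 116 FPKM. Cxcr4 rose 1.66-fold with miR-144, from 112 ± 2.47 to 187 ± 13.6 FPKM, a log2 difference of 0.73 with a standard error of 0.05 (adjusted p = 5.08e-08, limma). With miR-451a it rose 1.57-fold to 177 ± 12.7 FPKM, a log2 difference of 0.65 with a standard error of 0.05 (adjusted p = 1.66e-07, limma). Only 0.591% of all listed genes had a higher mean than Cxcr4 in control TAMs, 0.271% for miR-144 and 0.291% for miR-451a.

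Ackr3 (ENSMUSG00000044337, chr1:90203980-90216751, plus strand, protein-coding) encodes the atypical receptor that binds Cxcl12 and Cxcl11. Its FPKM was 0.227, 0.194, 0.172, 0.505 and 0.374 in the control samples. It was 0.109, 0.468, 0, 0.0532 and 0.164 in the miR-144 samples. It was 0.207, 0.0811, 0.112, 0.261 and 0.0898 in the miR-451a samples. The groups overlapped, and replicate 2 of the miR-144 group lay among the high control samples while the other 4 lay at or below 0.164. The log2 difference was -0.17 with either miRNA (95% confidence interval -0.38 to 0.04 for both, adjusted p = 0.242 and 0.235, limma). Without miR-144 replicate 2 it was -0.25 for miR-144 and passed the test (adjusted p = 0.0217, limma).

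Ccrl2 (ENSMUSG00000043953, chr9:111054486-111057519, minus strand, protein-coding) encodes an atypical receptor that holds chemerin at the cell surface without signalling. Its FPKM was 5.16, 5.48, 6.49, 6.25 and 5.63 in the control samples, 4.57, 4.30, 3.92, 4.18 and 4.35 with miR-144, and 3.51, 4.18, 3.82, 4.31 and 4.72 with miR-451a. The highest miRNA sample, 4.72 FPKM, lay below the lowest control sample. The control mean was 5.802 ± 0.552 FPKM, the miR-144 mean 4.26 ± 0.239 and the miR-451a mean 4.11 ± 0.466. Ccrl2 fell by 0.37 on the log2 scale for miR-144 and by 0.41 for miR-451a (standard error 0.07 for both, adjusted p = 5.19e-04 and 1.70e-04, limma).

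Ccr1 (ENSMUSG00000025804, chr9:123962124-123968692, minus strand, protein-coding) encodes a receptor of Ccl3, Ccl6, Ccl7 and Ccl9. Its FPKM was 7.10, 6.91, 8.37, 8.29 and 7.03 in the control samples. It was 2.02, 1.996, 3.92, 3.94 and 1.61 in the miR-144 samples. It was 2.51, 2.54, 4.08, 4.45 and 1.25 in the miR-451a samples. No miRNA sample reached the lowest control sample, 6.91 FPKM. Ccr1 had the largest fall of the 9 receptors on the log2(FPKM + 1) scale, which understates those of Cxcr1 and Cxcr2. Its mean went from 7.54 ± 0.727 to 2.70 ± 1.13 with miR-144, a log2 difference of -1.26 with a standard error of 0.23 (adjusted p = 6.52e-04, limma). It went to 2.96 ± 1.30 with miR-451a, a log2 difference of -1.17 with the same standard error (adjusted p = 0.00109, limma).

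The samples numbered 3 and 4 held the 2 highest Ccr1 values in each of the 3 groups. They had 8.29 and 8.37 FPKM in the control group, against 6.91 to 7.10 in replicates 1, 2 and 5. With miR-144 they had 3.92 and 3.94, against 1.61 to 2.02, and with miR-451a 4.08 and 4.45, against 1.25 to 2.54. The ratio of the means, replicates 3 and 4 over the others, was 1.19 in the control group, 2.09 for miR-144 and 2.03 for miR-451a. The control mean of Ccr1 over the miR-144 mean was 2.12 in replicates 3 and 4 and 3.73 in the others, and over the miR-451a mean it was 1.96 and 3.34. Among the 11419 genes averaging 1 FPKM or more, 140 (1.23%) had replicates 3 and 4 highest in all 3 groups, as Ccr1 did, and 380 (3.33%) had them lowest. If the order of samples had nothing to do with their number, 0.1% of genes would show either pattern. By the chi-square between pairs of samples, replicates 3 and 4 were the closest pair in the miR-144 group (mean chi-square per gene 4.33) and not in the others. In the control group they stood at 8.73, with replicates 1 and 5 closest (3.93), and in the miR-451a group at 6.13, with replicates 1 and 2 closest (3.70). This pattern was picked after the values were seen, and the labels name no batch. Ccr3 showed it in both miRNA groups and not in the control group.

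**Figure D3:**
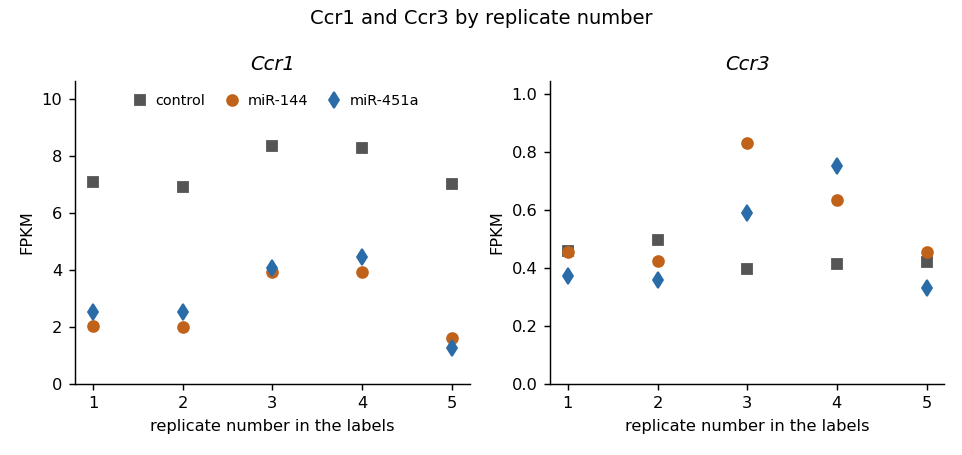
FPKM (y axis, linear from 0) of Ccr1 and Ccr3 by the replicate number of the labels (x axis), with 1 symbol per sample and group. For Ccr1, replicates 3 and 4 are highest in all 3 groups and each control sample lies above every miRNA sample. For Ccr3, replicates 3 and 4 of the miRNA groups, between 0.590 and 0.832 FPKM, lie above the rest.

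Ccr3 (ENSMUSG00000035448, chr9:124021972-124031689, plus strand, protein-coding) encodes the eotaxin receptor, known above all from eosinophils. Its FPKM was 0.397 to 0.496 in the control group (median 0.421), 0.423 to 0.832 with miR-144 (median 0.455) and 0.331 to 0.751 with miR-451a (median 0.373). The groups overlapped. The log2 difference was 0.11 with miR-144 (95% confidence interval -0.07 to 0.29, adjusted p = 0.394, limma) and 0.03 with miR-451a (-0.15 to 0.22, adjusted p = 0.816, limma). Of the eosinophil markers, Prg2 was at 0 in all 15 samples, and Epx and Il5ra had means of at most 0.00291 FPKM in any group. Siglecf, the marker of this list above 1 FPKM, fell from a mean of 2.26 FPKM to 0.357 and 0.355. The summed level of the 5 eosinophil markers was 2.09 to 2.59 FPKM in the control group, 0.159 to 0.493 with miR-144 and 0.242 to 0.532 with miR-451a, and its part in the Ccr3 level was not tested.

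Ccr2 (ENSMUSG00000049103, chr9:124101950-124113557, plus strand, protein-coding) encodes the receptor of the monocyte attractants Ccl2, Ccl7 and Ccl12. Its FPKM was 0.164, 0.259, 0.116, 0.141 and 0.126 in the control samples, where it corresponded to 16.4 to 41.6 implied fragments. It was 0.980, 1.03, 1.14, 1.16 and 0.939 in the miR-144 samples. It was 1.496, 1.32, 1.43, 1.37 and 1.34 in the miR-451a samples. The 3 groups did not overlap with each other. Ccr2 had the largest rise of the 9 receptors. It rose 6.51-fold with miR-144, from 0.162 ± 0.0575 to 1.05 ± 0.0983 FPKM, and 8.62-fold with miR-451a, to 1.39 ± 0.0735 FPKM. The log2 difference was 0.82 for miR-144 (adjusted p = 3.81e-09, limma) and 1.04 for miR-451a (adjusted p = 2.67e-10, limma), each with a standard error of 0.05. Some of its sequence is shared, since 2.27% of the 50-base windows along the longest Ccr2 transcript also occur in another gene, and how the authors' counting divided such reads is not given in the sources used here.

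Monocytes, from which many TAMs arise, carry Ccr2, and some of their markers were higher along with it. Of 8 markers, 4 rose for miR-144 and 6 for miR-451a, and none fell (limma, adjusted p under 0.05), beside 23.1% and 24.5% of all genes called higher. Of the 6 that averaged 1 FPKM or more, 4 rose in each comparison, beside 44.1% and 45.3% of all genes at that level. Fn1, the most abundant of the list, was not called at means of 53.0, 51.3 and 54.2 FPKM, nor was Hp at 6.80, 5.53 and 7.12. F13a1 rose from a mean of 0.325 FPKM to 5.95 and 9.84, and Ms4a4c from 0.758 to 12.2 and 12.5. Ly6c2, which marks classical monocytes, had means of 0.00617, 0.117 and 0.164 FPKM in the control, miR-144 and miR-451a groups, passed the test with miR-451a alone and lay under its floor in every control sample. The summed level of the list was 59.4 to 71.2 FPKM in the control group, 77.8 to 97.0 with miR-144 and 77.6 to 113 with miR-451a. Markers of Kupffer cells, the resident macrophages of the liver, were higher as well. Of 6, Clec4f was listed at 0 in all samples, 4 rose for miR-144 and 3 for miR-451a, and none fell. Only Cd5l had a mean above 1 FPKM in any group, rising from 3.40 to 29.8 and 27.1. Their summed level was 3.53 to 4.01 FPKM in the control group, 17.5 to 50.3 for miR-144 and 16.1 to 47.4 for miR-451a. The part of either list in the Ccr2 result was not tested.

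Cxcr1 (ENSMUSG00000048480, chr1:74191785-74194631, minus strand) and Cxcr2 (ENSMUSG00000026180, chr1:74153989-74161246, plus strand) are protein-coding neighbours, 30.5 kb apart, that encode the receptors of ELR-type CXC chemokines and are best known from neutrophils. Cxcr1 FPKM was 0.0873, 0.0723, 0.167, 0.185 and 0.221 in the control samples, where 2.94 to 7.72 implied fragments stood behind it. It was 0.0239, 0.0620, 0.0292, 0.0298 and 0 with miR-144, and 0, 0.0627, 0, 0.0442 and 0 with miR-451a. All 10 miRNA samples were under the floor of 3 fragments and below the lowest control sample. Cxcr2 FPKM was 0.0415, 0.107, 0.0520, 0.0552 and 0.146 in the control samples, on 3.02 to 10.8 implied fragments. It was listed at 0 in 4 of 5 samples of each miRNA group, with 0.0184 FPKM in miR-144 replicate 2 and 0.0153 FPKM in miR-451a replicate 2. Both genes were lower in the miRNA groups. For Cxcr1 the log2 difference was -0.15 for miR-144 and -0.17 for miR-451a (standard error 0.03 for both, adjusted p = 0.00213 and 0.00119, limma). For Cxcr2 it was -0.11 with both (standard error 0.02, adjusted p = 0.00125 and 0.00110, limma). No fold is given for either gene, since few fragments stood behind the control values and at most 1.97 implied fragments behind a miRNA sample. A heatmap of the study, drawn from its own samples of this series, shows both genes among pro-tumor genes, so their direction is not independent evidence.

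Of 9 neutrophil markers, Retnlg was listed at 0 in all samples, Ly6g had a highest group mean of 0.0119 FPKM and Ltf one of 0.00498 FPKM. Mmp8 and Csf3r, the markers of this list above 1 FPKM, both fell. Mmp8 went from a mean of 15.02 FPKM to 3.79 and 4.10, and Csf3r from 70.4 to 48.95 and 48.3. The other 6 that could be fitted did not pass the test in either comparison. Over all genes fitted, 9.65% were called lower for miR-144 and 9.69% for miR-451a. Among genes averaging 1 FPKM or more these shares were 18.6% and 18.8%. The summed level of the list was 78.7 to 95.9 FPKM in the control group, 50.4 to 56.4 with miR-144 and 48.5 to 57.2 with miR-451a, and its part in the Cxcr1 and Cxcr2 results was not tested. Some Cxcr2 sequence, 6.77% of the 50-base windows along its longest transcript, is shared with the gene Gm26764.

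Ccr7 (ENSMUSG00000037944, chr11:99144196-99155077, minus strand, protein-coding) encodes the receptor that guides dendritic cells and T cells to lymph nodes. It was listed at 0 in 4 of 5 samples of each group, and the remaining samples had 0.0287 FPKM (control replicate 2), 0.0374 FPKM (miR-144 replicate 4) and 0.0217 FPKM (miR-451a replicate 5). All 15 values were under the floor of 3 fragments, 0.0494 to 0.0974 FPKM, so that Ccr7 was not detectable at this depth in any group. Of 9 dendritic cell markers, 3 were higher and 1 lower with miR-144, and 4 higher and 1 lower with miR-451a. Over all genes, 23.1% were higher and 9.65% lower in the first comparison, and 24.5% and 9.69% in the second. Fscn1, which mature dendritic cells express, rose from a mean of 3.82 FPKM to 9.30 and 10.4 and Cacnb3 from 0.931 to 1.52 and 1.67, while Ccl22 was lower at 0 and 0.0125 against 1.91, and Flt3 was not called at means of at most 0.0314. Their summed level was 5.22 to 8.06 FPKM in the control group, 8.996 to 13.5 with miR-144 and 9.49 to 14.4 with miR-451a. The T cell markers Cd3e and Cd3g were at 0 in all samples.

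Between the miRNA groups, none of the 9 receptors passed the test. The same held for all 29540 genes in limma (0 called, 0%), while 1459 genes (4.94%) had an unadjusted p under 0.05. Without the mean-variance trend 1 gene was called. The count was also 1 without miR-144 replicate 4, without miR-144 replicate 5 and without miR-451a replicate 4. Of the 9 receptors, Ccr2 was the only 1 with an unadjusted p under 0.05. It was 1.32-fold higher with miR-451a, a log2 difference of 0.22 (95% confidence interval 0.12 to 0.32, unadjusted p = 3.34e-04, adjusted p = 0.645, limma). All 5 miR-451a samples, 1.32 to 1.496 FPKM, lay above all 5 miR-144 samples, 0.939 to 1.16 FPKM. These groups did not overlap for 0.657% of all genes. For the other receptors above 1 FPKM, the interval of the log2 difference was -0.42 to 0.59 for Ccr1, -0.19 to 0.03 for Cxcr4 and -0.19 to 0.10 for Ccrl2. The comparisons of miR-144 and miR-451a with control share the 5 control samples.

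Ccr1, Ccr3 and Ccr2 lie in a cluster of receptor genes on chromosome 9 (GENCODE M21, GRCm38). In order along the chromosome come Ccr1, Ccr1l1, Ccr3 and Ccr2, with 140 kb between the lowest coordinates of Ccr1 and Ccr2. Neighbouring genes differed in direction. Ccr1 fell, while Ccr1l1, the nearest gene to it, was higher (log2 differences 0.28 and 0.27, adjusted p = 0.0139 and 0.0147, limma) at means of 0.241 and 0.244 FPKM against 0.0225 in the control group, where it lay under its floor. Ccr3 was not called, and Ccr2 rose. Of the genes before Ccr1, Fyco1 rose from a mean of 5.07 FPKM to 7.81 and 7.603 (log2 differences 0.54 and 0.50) and Cxcr6 was higher at 0.202 and 0.174 FPKM against 0.1002. Xcr1 was higher with miR-451a (log2 difference 0.12), and Lztfl1 and Ccr9 did not pass the test. Ccrl2 lies 12.9 Mb from the cluster, next to Ltf, which was listed at 0 in both the control and miR-144 groups.

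**Figure D4:**
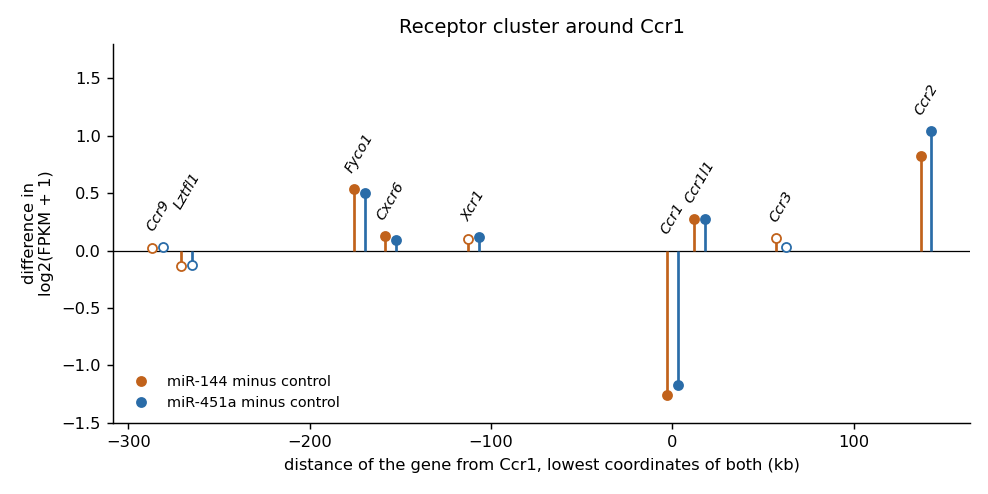
Difference in log2(FPKM + 1) from the control group (y axis) of genes from Ccr9 to Ccr2 on chromosome 9, by their distance from Ccr1 in kb (x axis, lowest coordinates of both genes), with filled points for an adjusted p under 0.05. Ccr1 is the gene that points down with filled points, and Ccr2, 140 kb away, has the largest difference upward.

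Since receptors moved in both directions, the 250 bases before the transcript start, taken from RefSeq, are shown for the 4 called receptors with the highest FPKM in the miRNA groups, Cxcr4 and Ccr2, which rose, and Ccrl2 and Ccr1, which fell (build GRCm38.p6, 5′ to 3′ toward the start). Capitals mark matches on either strand to 5 motifs, and overlapping matches are joined. The motifs were the TATA box, spelled TATAAA, the GC box, spelled GGGCGG, the core of the hypoxia response element, spelled ACGTG, the core bound by PU.1, spelled GAGGAA, and the GAS element of STAT factors, spelled TTCNNNGAA.
Cxcr4 (chr1:128592300-128592549, minus strand): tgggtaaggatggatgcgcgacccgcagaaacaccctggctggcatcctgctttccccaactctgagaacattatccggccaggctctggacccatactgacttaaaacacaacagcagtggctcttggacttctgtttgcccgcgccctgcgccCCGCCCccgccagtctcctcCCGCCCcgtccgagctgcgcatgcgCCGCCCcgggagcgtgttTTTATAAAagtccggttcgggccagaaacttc
Ccr2 (chr9:124101933-124102182, plus strand): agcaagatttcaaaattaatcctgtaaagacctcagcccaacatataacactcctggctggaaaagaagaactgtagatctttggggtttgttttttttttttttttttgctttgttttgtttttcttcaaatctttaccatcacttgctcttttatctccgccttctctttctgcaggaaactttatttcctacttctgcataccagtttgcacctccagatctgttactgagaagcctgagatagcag
Ccrl2 (chr9:111057519-111057768, minus strand, the first of 3 starts): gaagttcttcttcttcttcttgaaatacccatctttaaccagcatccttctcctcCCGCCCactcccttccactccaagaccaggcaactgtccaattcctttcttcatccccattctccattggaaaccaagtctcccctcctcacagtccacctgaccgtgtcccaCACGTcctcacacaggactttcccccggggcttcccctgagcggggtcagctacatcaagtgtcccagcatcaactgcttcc
Ccr1 (chr9:123968693-123968942, minus strand): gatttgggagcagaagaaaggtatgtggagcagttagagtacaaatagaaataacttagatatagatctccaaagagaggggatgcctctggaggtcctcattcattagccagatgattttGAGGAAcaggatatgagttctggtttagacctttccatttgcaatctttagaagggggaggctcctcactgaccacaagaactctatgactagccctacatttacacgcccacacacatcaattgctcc
The Cxcr4 stretch was the richest in G and C, with 61.2% and 19 CG pairs, against 54% and 5 for Ccrl2, 43.6% and 1 for Ccr1 and 37.2% and 1 for Ccr2. The median over 32817 promoters was 52.4% and 6 CG pairs. Cxcr4 held 3 GC boxes, where 32.7% of all promoters of this length held at least 1, and overlapping TATAAA matches on both strands, where 12.4% held at least 1 on either strand. Ccrl2 held 1 GC box and 1 ACGTG (16.6% of promoters), and Ccr1 held 1 GAGGAA (23.3%). The RefSeq start of Ccr2 lies downstream of the gene's first base in GENCODE M21, so that most of its 250 bases fall inside the gene as given above, while the other 3 stretches lie outside their genes but for 1 base of Ccrl2. Ccr2 held no match to any of the 5, and TTCNNNGAA (7.01%) was in none of the 4. These matches describe the letters of the window and were not tied to any factor.

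The remaining chemokine receptors moved in 1 direction where they were called. Of 16 listed, 15 could be fitted, with 7 called higher for miR-144, 10 for miR-451a and none lower, beside 23.1% and 24.5% of all genes called higher. The miR-451a count was 6 after quantile normalization and 8 with the replicate block. The median log2 difference was 0.10 and 0.09, beside 0.014 and 0.015 over all genes. Cx3cr1, the fractalkine receptor, rose from 0.0636 to 0.213 FPKM in control samples to 2.13 to 12.1 with miR-144 and 2.98 to 5.29 with miR-451a (log2 differences 2.35 and 2.11, adjusted p = 7.74e-05 and 1.96e-04, limma). Cxcr3, the receptor of interferon-induced CXC chemokines, rose from a mean of 0.107 FPKM to 2.57 and 2.75 (log2 differences 1.68 and 1.75, adjusted p = 3.78e-09 and 2.27e-09, limma). Of the 10 called with miR-451a, Ackr1 had at most 0.0474 FPKM, which is under its floor.

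The ligands were measured in the same TAM samples. Of 22 listed ligands, 20 could be fitted. For miR-144, 4 were higher and 8 lower, and for miR-451a, 5 were higher and 8 lower, with median log2 differences of -0.03 and -0.08. Over all genes 23.1% were higher and 9.65% lower for miR-144, and 24.5% and 9.69% for miR-451a, with medians of 0.014 and 0.015. Ccl8 went from 310 ± 21.1 FPKM down to 3.26 ± 1.43 and 1.66 ± 0.553, with log2 differences of -6.24 and -6.89 (adjusted p = 3.98e-12 and 1.45e-12, limma). Ccl24, an eotaxin that binds Ccr3, fell from 9.98 FPKM to 0.266 and 0.237, and Ccl6, a ligand of Ccr1, from 568 to 93.1 and 95.6. Ccl11 and Ccl8 stand among the pro-tumor genes of the study's heatmap too. Ccl4 rose from 7.91 to 33.8 and 31.6 FPKM, Ccl3 from 22.9 to 63.8 and 62.9, and Cxcl2, a ligand of Cxcr2, from 0.253 to 1.45 and 1.62. These 6 were the 3 largest falls and 3 largest rises in both comparisons on the log2(FPKM + 1) scale. As a ratio of means, Ccl11 fell farther than Ccl6, from 1.71 FPKM to 0.00822 and 0.0676.

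Set beside their receptors, the ligands of a receptor did not share its direction throughout. For Ccr1, which fell, Ccl6, Ccl7 and Ccl9 fell, Ccl3 rose, and Ccl5, at 2.58, 3.58 and 2.94 FPKM, was not called. For Ccr2, which rose, Ccl2, Ccl7 and Ccl12 fell, Ccl2 from a mean of 41.1 FPKM to 18.3 and 15.4. For Ccr3, which was not called, Ccl11 and Ccl24 fell. For Cxcr1 and Cxcr2, which fell, Cxcl2 rose, and the related ligands Cxcl1 (0.673, 0.898 and 0.698 FPKM), Cxcl3 (means of at most 0.0705) and Cxcl5 (3.03, 3.05 and 2.58) were not called in either comparison. Ppbp, another ligand of Cxcr2, had 0.409 FPKM in the control group, 0.763 for miR-144, where it was not called (adjusted p = 0.105, limma), and 0.988 for miR-451a, where it rose (log2 difference 0.47, adjusted p = 0.0192, limma), though its samples overlapped those of the control group. For Cxcr4, Cxcl12 had 1.78 FPKM in the control group, 2.56 with miR-144, where it did not pass the test (adjusted p = 0.146, limma), and 4.82 with miR-451a, where it rose (log2 difference 1.02, adjusted p = 3.60e-04, limma). Mif, a cytokine that also binds Cxcr4 and Cxcr2, had 73.7, 64.4 and 66.9 FPKM and was not called (adjusted p = 0.131 and 0.303, limma). Cxcl11, which binds Ackr3 and is annotated as a polymorphic pseudogene, was listed at 0 in all control samples and was called higher for miR-144, at a mean of 0.0231 FPKM that is under its floor. The Ccr7 ligands Ccl19 and Ccl21a were listed at 0 in all 15 samples, and chemerin (Rarres2), the ligand of Ccrl2, was at 0.127, 0.0961 and 0.138 FPKM and not called. Cxcl12, Mif and Rarres2 were picked by their receptor after their values were seen. The sort on CD11b and F4/80 should leave out fibroblasts, which are known to make Cxcl12, yet their markers were measured in all groups. Of 5, 3 (Col1a1, Col1a2 and Pdgfrb) were higher for miR-144, where Cxcl12 was not called, and 5 for miR-451a, while 44.1% and 45.3% of all genes averaging 1 FPKM or more were called higher. Their summed level was 106 to 131, 141 to 209 and 180 to 231 FPKM in the control, miR-144 and miR-451a groups. Their part in the Cxcl12 result was not tested.

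**Figure D5:**
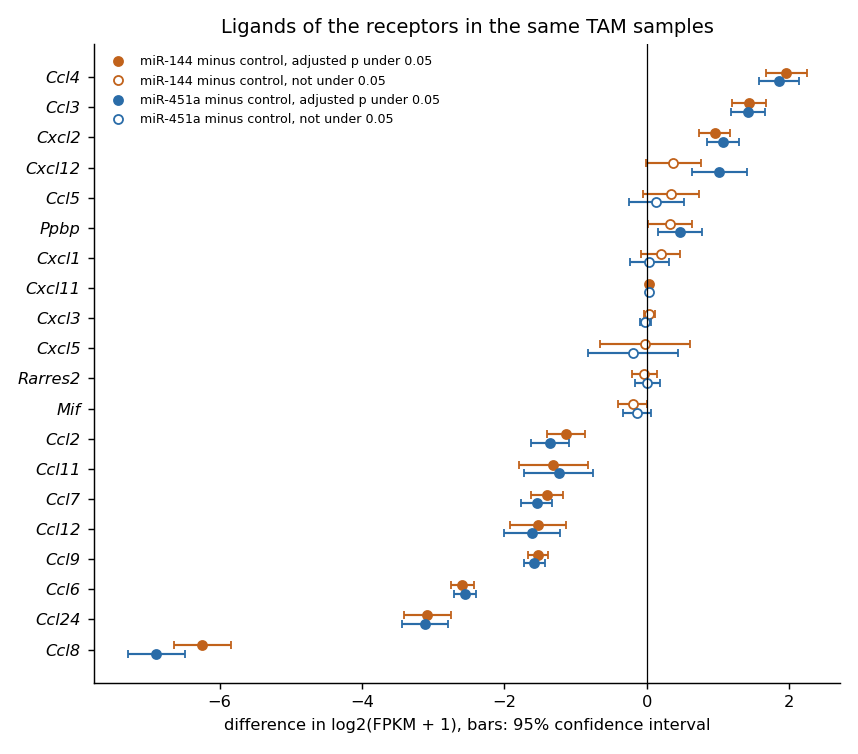
Difference in log2(FPKM + 1) from the control group (x axis) of the 20 ligands that could be fitted (y axis), with 95% confidence intervals as bars and filled points for an adjusted p under 0.05. Ccl8, Ccl24 and Ccl6 lie farthest to the left and Ccl4, Ccl3 and Cxcl2 farthest to the right.

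Genes that act below the receptors were mostly higher. Of 31 signalling genes, 24 were higher and 4 lower in each comparison, with median log2 differences of 0.71 and 0.71. Of the 30 that averaged 1 FPKM or more, 23 were higher and 4 lower in each comparison. Among all genes at that level, 44.1% were higher and 18.6% lower with miR-144, and 45.3% and 18.8% with miR-451a. Among the largest rises were those of Gng2, a G protein subunit, Arrb2, a beta-arrestin that uncouples receptors, and Rgs2, which limits G protein signalling. Arrb2 rose from 34.7 ± 1.56 FPKM to 104.9 ± 4.29 and 103.7 ± 4.63, and Gng2 from 14.1 to 46.0 and 47.6. Rgs2 rose from 8.89 FPKM to 27.9 and 29.4. Pik3r5, a regulatory subunit of phosphoinositide 3-kinase gamma, fell from 89.1 FPKM to 56.6 and 53.4, while its partner Pik3cg rose from 5.64 to 14.9 and 15.6 (a gene named after its values were seen). Grk5, a receptor kinase, and Dock2, a Rac activator in leukocyte migration, also fell (log2 differences -0.44 and -0.53, and -0.39 and -0.40).

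All of these differences stand against a shift of the whole table. The median log2 difference of genes averaging 1 FPKM or more was 0.13 for miR-144 and 0.14 for miR-451a, and 70.6% and 71.6% of called genes were higher. With the samples centred on their medians these shares were 53.9% and 53.9%, and after quantile normalization 52.6% and 52.9%. Rescaled to TPM they were 76.4% and 77.8%. The 6 receptors kept their direction and their call under these scalings. The smallest rise of Cxcr4 was then 0.57 for miR-144 and 0.48 for miR-451a, under median centring.

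For Cxcr4, Ccrl2 and Ccr1, the genes with the most similar profile were found by the root mean square difference of log2(FPKM + 1), each gene taken relative to its control mean, over the 15 samples. Nearest to Cxcr4 were Cybb (root mean square difference 0.06), which encodes a subunit of the phagocyte oxidase and had 187, 314 and 302 FPKM in the 3 groups, and Zfp710 (0.07). Nearest to Ccrl2 were Prr13 (0.07) and Atp6v1f (0.07), and nearest to Ccr1, at greater distance, were Fchsd2 (0.24) and Ptgs1 (0.26). Ptgs1, which encodes cyclooxygenase-1, had 22.6 FPKM in the control group, 9.23 in the miR-144 group and 9.46 in the miR-451a group.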

How the data were processed

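RNA of sorted TAMs was measured in 15 samples, 5 per group, with groups and replicate numbers taken from the sample labels. The authors sequenced the RNA (Illumina HiSeq) and deposited a table of FPKM, that is, values scaled by them to transcript length and mapped fragments. The submitters' processing notes name FastQC 0.11.2, STAR and StringTie, with no roles. The genome build and the annotation are not given in the sources used here. Read counts were not used here. Depth was implied from the steps of low values in genes with a single transcript above 1000 bp. Only 38.8% to 52.5% of low values lay on a step (10.0% by chance), so whole reads could not be taken back from the table and a count test was left out. Replicates of 1 group were compared in pairs, and all differed beyond counting noise (lowest mean chi-square per gene 3.70).

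Gene identifiers were matched to GENCODE M21 (99.67% found), whose 1-based coordinates are given. A single linear model of log2(FPKM + 1) held all 3 groups (limma 3.58.1, R 4.3.3). Variances were moderated along a trend, and p-values of the 29540 genes above 0 in any sample were adjusted by Benjamini-Hochberg. The step was tested on simulated data. Differences and p-values are two-sided. The other steps used Python 3.11.15, numpy 2.4.6, pandas 2.3.3 and matplotlib 3.10.9.

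The members and lists were chosen with earlier results of these data known. Named genes were the 9 receptors, the 3 largest rises and falls called in each list of other receptors, ligands and signalling genes, the neighbours of the chromosome 9 cluster and the 2 most similar profiles. Some genes that this rule names are not reported here. Alternatives were a pseudocount of 0.1, a minimum mean of 1 FPKM, median centring (samples scaled by the median log2 FPKM of genes with a mean of at least 1 and above 0 in every sample, so that 0 stays 0), quantile normalization, TPM, the replicate block, no trend, 2 groups only, a minimum log2 difference of 1 and each sample left out.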

Additional observations from a re-analysis of the deposited data

Results flagged for a closer look

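In a group of 5 samples, a sample was marked when its gap to the nearest other sample, divided by the range of the group, passed Dixon's critical value of 0.71. Of 27 groups of values (9 receptors in 3 groups), 6 held such a sample. Cxcr4 in miR-451a replicate 5 was 199 FPKM, against 169.6 to 175 in the other 4 samples of its group. Chance marks about 1 in 20 groups. The other 5 were single values above 0 in a group otherwise listed at 0, which passes the critical value by construction, and all lay under the floor of 3 fragments. They were Ccr7 in control replicate 2 (0.0287 FPKM), miR-144 replicate 4 (0.0374 FPKM) and miR-451a replicate 5 (0.0217 FPKM), and Cxcr2 in miR-144 replicate 2 (0.0184 FPKM) and miR-451a replicate 2 (0.0153 FPKM).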

How the results depend on the processing

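The 6 receptors called in each comparison with control were called in the same direction under every alternative that fitted them, apart from the minimum log2 difference. With a minimum mean of 1 FPKM only Cxcr4, Ccr1 and Ccrl2 could be fitted, so 3 were called in each comparison. With a minimum log2 difference of 1, the count was 1 with miR-144 (Ccr1) and 2 with miR-451a (Ccr1 and Ccr2). Without single samples it was 6 to 7 with miR-144 and 6 with miR-451a. Of the other receptors, 4 were called in each comparison with a minimum mean of 1 FPKM and 2 with a minimum log2 difference of 1, and 6 with miR-451a after quantile normalization. Of the signalling genes, 9 passed the minimum log2 difference in each comparison.

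The replicate numbers were not taken to pair the samples, since not every pair of same-numbered samples correlated above 0.1 and the labels give no shared batch, although the values hold some structure by number. Deviations of same-numbered samples correlated at a mean of -0.0122 (control with miR-144, 1 of 10 samples best with its own number), 0.140 (control with miR-451a, 6 of 10) and 0.101 (both miRNA groups, 5 of 10). With the replicate block 6 receptors were called in each comparison, and 8 other receptors in place of 10 with miR-451a.

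Differences that were not called changed sign under some alternatives, with causes not tested. For Ccr3 with miR-451a the difference was -0.018 under median centring, -0.076 after quantile normalization and -0.028 to 0.071 without single samples. For Ccr7, on values under the floor, it was -0.0082 to 0.011 with miR-144, -0.0082 to 0.0062 with miR-451a and -0.011 to 0.0062 between them without single samples. Between the miRNA groups, leaving out single samples gave -0.047 to 0.27 for Ccr1, -0.025 to 0.00052 for Cxcr1, -0.0053 to 0.0044 for Cxcr2 and -0.050 to 0.089 for Ackr3. Ackr3 was there at -0.0015 under median centring and -0.0032 after quantile normalization. Depth limits Ccr7 in all groups and Cxcr1 and Cxcr2 in the miRNA groups, which lay under 3 fragments.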

Other observations

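The balance between a pair of receptors, and between a receptor and its ligand, was set side by side within each sample, a description chosen after the values were seen and not tested. Ccr1 FPKM was 26.6 to 72.1 times that of Ccr2 in control samples, 1.72 to 3.42 times with miR-144 and 0.931 to 3.24 times with miR-451a, where in 1 of 5 samples Ccr2 was the higher of the pair. The ratio of Cxcr4 to Cxcl12 was 51.7 to 108 in the control group, 66.2 to 76.8 with miR-144 and 20.2 to 54.2 with miR-451a.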
